A study of Mus musculus with 128 samples.

Results

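The liver releases peptide hormones that report its nutrient state to other organs, and 9 genes of this kind were followed among the 35275 genes of the count table: Fgf21, Gdf15, Inhbe, Inhba, Fst, Angptl4, Ahsg, Fetub and Leap2. They were taken by gene symbol, with earlier results of these data known, and each symbol matched 1 gene. Fibroblast growth factor 21 (Fgf21) is a liver hormone that acts on fat and brain through FGF receptors and the co-receptor beta-Klotho, and is known to be induced both in fasting, through PPAR alpha, and by sugars, through the carbohydrate-response factor ChREBP. Growth differentiation factor 15 (Gdf15) is a stress-induced cytokine that lowers appetite. Inhba and Inhbe encode beta subunits of activins, and follistatin (Fst) binds activins and blocks them. Angptl4 inhibits lipoprotein lipase, the fetuins Ahsg and Fetub are abundant plasma glycoproteins linked to insulin resistance, and Leap2 encodes a peptide that opposes ghrelin at its receptor.

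All mice were male wild-type animals of the inbred strains BALB/c and C57BL6/J, aged 8 weeks. They were trained for 1 week, fasted for 21 h with water withheld from 4 pm, and given chow at 7 pm in which fat supplied 10% and carbohydrate 64.5% of calories. The drink given with the chow held 20% glucose, 20% sucrose or 20% fructose, or was plain water. Sucrose is the disaccharide in which the monosaccharides glucose and fructose are joined. The sources used here do not give the amount drunk. Livers were taken 3, 6 and 12 h after feeding began in all 4 drink groups and at 0 h, before feeding, in mice listed with water, so each later time also differs from 0 h in clock time. This gives 26 groups and 128 libraries, of which 24 groups hold 5 libraries each, and the BALB/c groups with glucose and with fructose at 12 h hold 4 each. That each library is a separate mouse is read from the labels, and p-values measure the spread between libraries.

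Total counts per library were 18541545 to 43118895, with a median of 24131379. The 9 genes had median read counts per library of 18 for Fst, 77.5 for Fgf21, 128.5 for Inhba, 144 for Gdf15, 751.5 for Inhbe, 1683.5 for Angptl4, 4363.5 for Leap2, 15548.5 for Fetub and 146397 for Ahsg, so that the values of Fst and Fgf21 carry most counting error. All 9 passed the filter on low counts. Hepatocyte markers (7 of 8 listed genes matched) summed to between 45841 and 134268 CPM (the counts-per-million unit, scaled to library size) in every library. Skeletal muscle markers (8 of 8) summed to between 0.227 and 567 CPM. Over all drinks their medians were 193, 90.3, 224 and 1.98 CPM in the 0, 3, 6 and 12 h libraries. Among them Myh1 was at 0 in 28 libraries and Ckm in 26, whereas Acta1 and Tnnt3 were at 0 in 10 each and Mylpf in 0. The part of muscle transcripts in the time effects below was not tested. Markers of other organs stood far above their medians in some 6 h libraries. Exocrine pancreas markers reached 1595 CPM in C57BL6/J glucose replicate 3 (median 33.2) and stomach markers 86.6 CPM in replicate 2 (1.20). Kidney markers reached 1557 CPM in BALB/c glucose replicate 3 (0.0389), and adrenal markers 601 CPM in C57BL6/J water replicate 2 (3.49). Their part in the 6 h results was not tested, and these libraries were not left out singly. In bulk liver, fewer cells of a type and less RNA per cell cannot be told apart.

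A few libraries stood apart from their groups. C57BL6/J water 0 h replicate 2 lay nearest to the 3 h libraries over 300 feeding-responsive genes, and BALB/c fructose 6 h replicate 4 nearest to those of 12 h. In BALB/c water 0 h replicate 1, Fst was at 25.1 CPM against 0.0905 to 0.462 CPM in the other 4 libraries, Inhbe at 0.121 against 17.5 to 43.3 CPM, and Leap2 at 4.40 against 74.3 to 109.9 CPM. Some results that rest on the 0 h libraries are also given without them. BALB/c fructose 6 h replicate 4 was left out only together with both 0 h libraries.

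Per length of transcript, the 9 genes spanned 4 orders of abundance. In FPKM, which scales read pairs by transcript length and library total, the median over 128 libraries was 4072 for Ahsg (2398 to 9887), 398 for Fetub (242 to 671), 348 for Leap2 (8.40 to 781), 22.2 for Angptl4 (3.96 to 122), 15.0 for Inhbe (0.0575 to 39.1), 3.77 for Gdf15 (0.630 to 19.2), 3.63 for Fgf21 (0.0498 to 53.0), 2.64 for Inhba (0 to 17.1) and 0.326 for Fst (0 to 10.9). The fetuins varied least between groups, and Fst, Fgf21 and Inhba varied most. The SD of the 26 group means was 1.48 on the log2 scale for Fst, 1.40 for Fgf21 and 1.09 for Inhba, 0.88 for Angptl4, 0.67 for Inhbe, 0.65 for Leap2 and 0.52 for Gdf15, and 0.11 for Ahsg and 0.21 for Fetub. The SD within groups was 1.17 for Fst, 1.21 for Fgf21, 1.04 for Inhba, and 0.30 for both Ahsg and Fetub. Fgf21 thus varied by about as much between mice of a group as between groups.

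The genes lie on 7 mouse chromosomes (mm10 coordinates of the deposited table). Fgf21 (ENSMUSG00000030827) is at chr7:45613907-45615490 on the minus strand, Gdf15 (ENSMUSG00000038508) at chr8:70629393-70632456 (minus), Inhbe (ENSMUSG00000047492) at chr10:127349402-127351772 (minus), and Leap2 (ENSMUSG00000036216) at chr11:53422181-53423170 (minus). Inhba (ENSMUSG00000041324) at chr13:16011851-16027211 (plus) and Fst (ENSMUSG00000021765) at chr13:114452262-114458730 (minus) share a chromosome, as do Ahsg (ENSMUSG00000022868) at chr16:22892042-22899438 (plus) and Fetub (ENSMUSG00000022871) at chr16:22918382-22939766 (plus), which are neighbours. Angptl4 (ENSMUSG00000002289) is at chr17:33773750-33781575 (minus). Gene models of other transcripts overlap Inhbe (Gm47200), Inhba (B230303A05Rik and Gm48444), Fst (Gm47040) and Ahsg (Gm30505). The sources used here do not say whether counting used strand, so the counts of these 4 genes carry that uncertainty.

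The promoter of Fgf21 is shown because this gene gave the largest sugar response among the 9, and that of Inhbe because it was the only other window with the same 8-letter element. Each run gives the 250 bases upstream of the RefSeq start (GRCm38.p6), 5′ to 3′ on the gene's strand, at chr7:45615491-45615740 for Fgf21 and chr10:127351849-127352098 for Inhbe. Capitals mark the motifs found.
Fgf21: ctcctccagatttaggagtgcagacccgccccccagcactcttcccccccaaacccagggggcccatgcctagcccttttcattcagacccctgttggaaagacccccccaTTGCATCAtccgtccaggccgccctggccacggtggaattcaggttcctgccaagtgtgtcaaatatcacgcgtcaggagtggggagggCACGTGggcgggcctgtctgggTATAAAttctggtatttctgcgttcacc
Inhbe: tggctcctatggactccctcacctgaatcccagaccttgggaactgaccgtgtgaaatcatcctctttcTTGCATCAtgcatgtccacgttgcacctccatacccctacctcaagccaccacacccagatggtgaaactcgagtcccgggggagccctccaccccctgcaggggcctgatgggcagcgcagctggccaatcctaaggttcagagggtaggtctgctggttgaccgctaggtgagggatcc
RefSeq windows matched 6 of the 9 genes, with 8 windows in all. Both strands were searched for TGATGNAA, an element of C/EBP and ATF factors, and for the cyclic AMP response element TGACGTCA. The search also took in CACGTG, known as an E-box. Lastly it covered the FoxO element GTAAACA, and the TATA box was searched as TATAAA. TGATGNAA was found as its reverse complement TTGCATCA at −139 to −132 in Fgf21 and at −181 to −174 in Inhbe, counted from the start. Fgf21 also held CACGTG at −50 to −45 and TATAAA at −28 to −23. Of 32851 promoter windows of the same length, 3.45% held TGATGNAA, 6.02% CACGTG, 1.55% TGACGTCA, 3.17% GTAAACA and 12.37% TATAAA. In the other windows, CACGTG lay at −83 to −78 in the second Gdf15 window, TATAAA at −91 to −86 in Inhba and at −31 to −26 in Fetub, and GTAAACA at −236 to −230 in the second Fetub window. These are matches of letters, not shown binding sites.

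The first question was how sugar in the drink changed Fgf21 beyond chow and water. The 3 sugar groups at each time were set against the same water group. At 3 h in C57BL6/J, Fgf21 stood at 7.93, 13.7, 3.52, 5.29 and 2.02 CPM with glucose, at 11.0, 24.4, 8.96, 13.5 and 5.31 CPM with sucrose and at 1.35, 7.19, 13.8, 8.03 and 5.61 CPM with fructose, against 0.215, 0.0796, 0.663, 0.0403 and 0.431 CPM with water. All 15 sugar libraries lay above the highest water library, and the lowest of these water libraries held 1 read of the gene. In BALB/c it was 7.80, 11.5, 4.83, 1.44 and 23.9 CPM with glucose, 12.2, 17.8, 13.6, 38.6 and 16.4 CPM with sucrose and 7.12, 50.6, 14.2, 0.331 and 24.3 CPM with fructose, against 1.92, 1.11, 0.759, 1.61 and 7.57 CPM with water. Here 11 of 15 sugar libraries lay above the highest water library, and the sucrose group did not overlap water. BALB/c fructose replicate 4, at 0.331 CPM, was below every water library of its strain at 3 h, although replicate 2 of the same group was the highest of all 128 libraries.

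Averaged over both strains, Fgf21 was higher by 3.22 ± 0.54 on the log2 scale with glucose (SE, edgeR adjusted p = 0.000518, with 9 of 10 libraries above the water mean of their strain). It was higher by 4.19 ± 0.55 with sucrose (edgeR adjusted p = 4.55e-08, 10 of 10) and by 3.77 ± 0.54 with fructose (edgeR adjusted p = 5.15e-07, 9 of 10). As folds these are 9.32 (95% interval 4.45 to 19.51), 18.31 (8.62 to 38.92) and 13.68 (6.48 to 28.89). Without replicate 2 in every group the glucose value was 2.73 and was not called (edgeR adjusted p = 0.0658). Fgf21 was the only one of the 9 genes called at 3 h. That is 1 of 9 with glucose, where 0.19% of the 16886 genes tested were called, 1 of 9 with sucrose (2.92%) and 1 of 9 with fructose (6.71%).

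**Figure D1:**
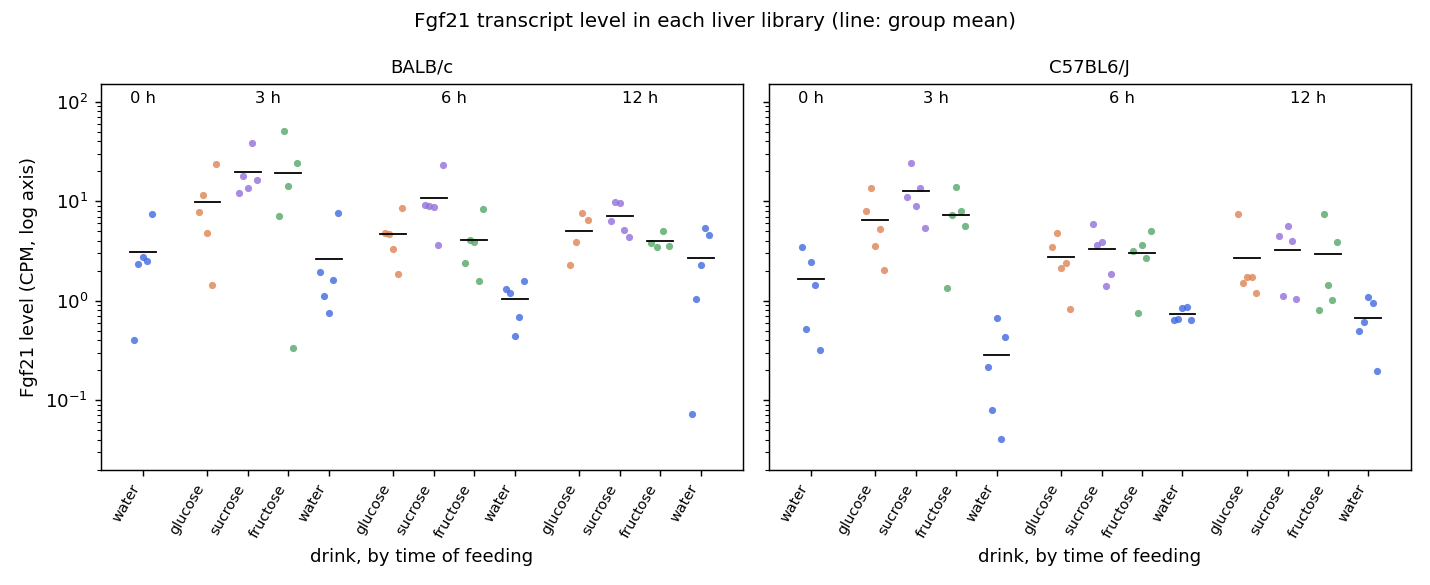
Fgf21 in CPM on a log axis, BALB/c in the left panel and C57BL6/J in the right, with glucose, sucrose, fructose and water by hours after feeding began. Each point is a library and each line a group mean. At 3 h the 15 C57BL6/J sugar libraries sit above all 3 h water libraries of that strain, the lowest of which is at 0.0403 CPM. At 12 h every sugar group overlaps water in BALB/c, and in C57BL6/J all but glucose do.

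At 6 h Fgf21 was lower than at 3 h in most sugar groups and still above water. In C57BL6/J it was 3.47, 4.80, 2.13, 2.39 and 0.832 CPM with glucose, 5.84, 3.59, 3.92, 1.41 and 1.85 CPM with sucrose and 3.12, 0.744, 3.59, 2.71 and 4.98 CPM with fructose, against 0.635, 0.648, 0.849, 0.858 and 0.639 CPM with water. In BALB/c it was 4.82, 4.62, 3.27, 1.84 and 8.60 CPM with glucose, 9.12, 8.84, 8.77, 3.61 and 23.0 CPM with sucrose and 2.41, 4.03, 3.91, 1.58 and 8.31 CPM with fructose, against 1.30, 1.20, 0.441, 0.679 and 1.56 CPM with water. The BALB/c sugar libraries, 15 of 15, and 13 of 15 C57BL6/J sugar libraries lay above the highest water library of their strain. The log2 fold changes were 2.04 ± 0.51 with glucose (SE, edgeR adjusted p = 0.0304), 2.78 ± 0.52 with sucrose (edgeR adjusted p = 0.000611) and 2.02 ± 0.52 with fructose (edgeR adjusted p = 0.0243), each higher in 10 of 10 libraries. Sucrose kept its call under every alternative, whereas glucose and fructose lost theirs without replicate 1, 2, 3 or 5 and in the libraries without a name suffix, with values of 1.73 to 2.15.

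At 12 h no sugar was called for Fgf21. The group means in BALB/c were 5.04 ± 2.38 CPM with glucose (SD, n = 4), 7.01 ± 2.47 with sucrose (n = 5) and 3.95 ± 0.746 with fructose (n = 4), against 2.66 ± 2.26 with water (n = 5). In C57BL6/J they were 2.71 ± 2.64, 3.24 ± 2.07 and 2.91 ± 2.81 CPM with glucose, sucrose and fructose, against 0.662 ± 0.352 CPM with water (SD, n = 5 each). The log2 fold changes were 1.47 ± 0.51, 1.84 ± 0.50 and 1.36 ± 0.51 with edgeR adjusted p = 0.438, 0.296 and 1 for glucose, sucrose and fructose. Of the sugar libraries, 5 of 13 in BALB/c and 12 of 15 in C57BL6/J lay above the highest water library. None of the 9 genes was called by edgeR or by DESeq2 at 12 h. The unadjusted edgeR p was under 0.05 for 4 of them with glucose, 2 with sucrose and 3 with fructose, and edgeR called 0.0651%, 0.00592% and 0.00592% of all genes.

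Set against their own 3 h groups, the sugar groups at 12 h held less Fgf21. The log2 fold change was -1.73 ± 0.47 with sucrose (SE, edgeR adjusted p = 0.00262) and -1.79 ± 0.49 with fructose (edgeR adjusted p = 0.00323), and -1.13 ± 0.48 with glucose, which was not called (edgeR adjusted p = 0.071). In the 94 libraries without a name suffix the sucrose and fructose values were -1.65 and -1.45 and were not called (edgeR adjusted p = 0.0552 and 0.0558).

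The sugars were compared with each other in 6 pairs at matched time, 3 at 3 h and 3 at 6 h. For Fgf21 at 3 h the difference of sucrose from glucose was 0.97 on the log2 scale (95% interval 0.07 to 1.88, edgeR adjusted p = 0.475), that of fructose from glucose 0.55 (-0.35 to 1.46, 0.723) and that of sucrose from fructose 0.42 (-0.48 to 1.32, 0.991). At 6 h these were 0.74 (-0.19 to 1.67, edgeR adjusted p = 0.787), -0.02 (-0.95 to 0.91, 0.995) and 0.76 (-0.17 to 1.69, 1). In every pair but fructose against glucose at 6 h the interval reached past a log2 difference of 1, so the data neither show a difference nor show that the sugars act alike. None of the 9 genes was called in any pair by edgeR or DESeq2, and 6 of the 54 tests had an unadjusted edgeR p under 0.05. Of all genes, fructose and glucose differed for 2.35% at 3 h and 0.255% at 6 h, sucrose and glucose for 0.213% and 0.0118%, and sucrose and fructose for 0% at both times. The last 2 zeros compare with 511 and 402 genes at an unadjusted p under 0.05 and 7 and 2 genes called by DESeq2.

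Angptl4 came nearest to a difference between sugars. At 6 h it stood at 61.5, 63.8, 129.7, 168.7 and 88.3 CPM with fructose and 64.8, 66.0, 71.5, 42.0 and 31.1 CPM with glucose in BALB/c. In C57BL6/J it was 61.3, 127.2, 92.7, 89.4 and 52.3 CPM with fructose and 12.6, 35.8, 68.1, 69.7 and 33.3 CPM with glucose. The groups overlapped in both strains, and the log2 difference was 0.92 (95% interval 0.34 to 1.50, edgeR adjusted p = 0.162). At 3 h it was 0.64 (edgeR adjusted p = 0.31), or 1.08 without replicate 1 (0.0487), where C57BL6/J glucose replicate 1 stood at 77.6 CPM and the others of its group at 15.2 to 24.0 CPM.

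Feeding on water alone took Fgf21 the other way. BALB/c libraries held 1.92, 1.11, 0.759, 1.61 and 7.57 CPM at 3 h and 0.404, 2.31, 2.71, 2.49 and 7.42 CPM at 0 h. C57BL6/J libraries held 0.215, 0.0796, 0.663, 0.0403 and 0.431 CPM at 3 h and 3.46, 0.521, 2.46, 1.45 and 0.316 CPM at 0 h. The times overlapped in both strains, although 9 of 10 fed libraries lay below the 0 h mean of their strain. The log2 fold change was -1.38 ± 0.54 at 3 h (SE, edgeR adjusted p = 0.05 as rounded, just under the threshold) and -1.36 ± 0.52 at 6 h (edgeR adjusted p = 0.0381, lower in 10 of 10). The 3 h call was lost in 7 of 16 alternatives and the 6 h call in 6, with values of -1.20 to -1.63 and -1.19 to -1.39 there.

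Lists of known targets of factors that can act on Fgf21 were counted beside it. Which of these factors acted on Fgf21 here was not tested. Of all genes, 0.19% were called with glucose at 3 h, 2.92% with sucrose and 6.71% with fructose. Of 14 ChREBP targets, Fgf21 included, 5 rose with glucose at 3 h, 10 with sucrose and 9 with fructose, with median log2 fold changes of 0.83, 1.20 and 1.00 where all genes had medians of 0.00, -0.01 and 0.00. With sucrose these held Rgs16, a regulator of G protein signalling (4.02 ± 0.63, edgeR adjusted p = 7.26e-06), Dak, a kinase of fructose breakdown (1.35, 1.91e-05), and Fasn, the fatty acid synthase (1.82, 6.04e-05). At 6 h 3, 5 and 4 of the 14 rose with glucose, sucrose and fructose, where 0.906%, 1.14% and 1.23% of all genes were called. On water at 3 h against 0 h, 4 of the 14 rose and 5 fell, where 25.4% of all genes were called. Of 14 PPAR alpha targets, Fgf21 and Angptl4 included, 1 rose with each sugar at 3 h and at 6 h, which was Fgf21 itself. Of 17 ATF4 targets of the integrated stress response, Fgf21 and Gdf15 included, 1 rose with glucose, 1 with sucrose and 2 with fructose at 3 h, the second with fructose being Sesn2 (0.74), and Atf3 fell with fructose by 1.10 on the log2 scale. None of the 6 tested FGF21 and GDF15 receptor genes was called in any of these 6 comparisons by edgeR.

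Among the 26 groups Fgf21 averaged highest in BALB/c with sucrose at 3 h, at 19.7 ± 10.8 CPM (SD, n = 5), and lowest in C57BL6/J with water at 3 h, at 0.286 ± 0.261 CPM (n = 5), a ratio of 68.93. No 2 neighbours in the order of the 26 group means had ranges that did not overlap. The 3 genes whose group means followed those of Fgf21 most closely, among 11606 genes, were the glycolytic isomerase Gpi1 (r = 0.77 over 26 groups), the signal adaptor Traf2 (0.75) and the tubulin tyrosine ligase Ttl (0.74).

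The second gene that sugars raised was Inhba, the subunit of activin A. At 6 h in C57BL6/J it stood at 12.8, 23.8, 14.0, 3.65 and 20.3 CPM with glucose, 20.2, 9.58, 8.91, 8.22 and 5.27 CPM with sucrose and 15.2, 7.20, 12.2, 10.4 and 15.6 CPM with fructose, against 5.91, 4.27, 2.90, 3.38 and 3.88 CPM with water. In BALB/c it was 12.6, 2.06, 5.88, 7.23 and 6.52 CPM with glucose, 7.05, 5.38, 7.68, 3.23 and 7.43 CPM with sucrose and 10.9, 6.87, 2.79, 0.678 and 7.79 CPM with fructose, against 3.60, 1.95, 0.970, 1.08 and 1.56 CPM with water. Of the sugar libraries, 13 of 15 in C57BL6/J and 11 of 15 in BALB/c lay above the highest water library, and the lowest was BALB/c fructose replicate 4, the library nearest to 12 h. The log2 fold changes were 1.88 ± 0.42 with glucose (SE, edgeR adjusted p = 0.0127), 1.55 ± 0.42 with sucrose (0.0402) and 1.62 ± 0.42 with fructose (0.0278), or 3.69, 2.92 and 3.06 as folds, higher in 9, 10 and 9 of 10 libraries. All 3 calls were lost without replicate 3 or 5 and in the libraries without a name suffix, with values of 1.41 to 1.79, and those with sucrose and fructose also without replicate 1 or 2.

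With Fgf21 and Inhba, 2 of 9 genes were called at 6 h with glucose, where 0.906% of all genes were, 2 with sucrose (1.14%) and 2 with fructose (1.23%). At 3 h Inhba was not called with any sugar. Sugar libraries above the highest water library numbered 10 of 15 in BALB/c and 0 of 15 in C57BL6/J, where water replicate 2 stood at 33.0 CPM and the other water libraries at 4.44 to 8.38 CPM.

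**Figure D2:**
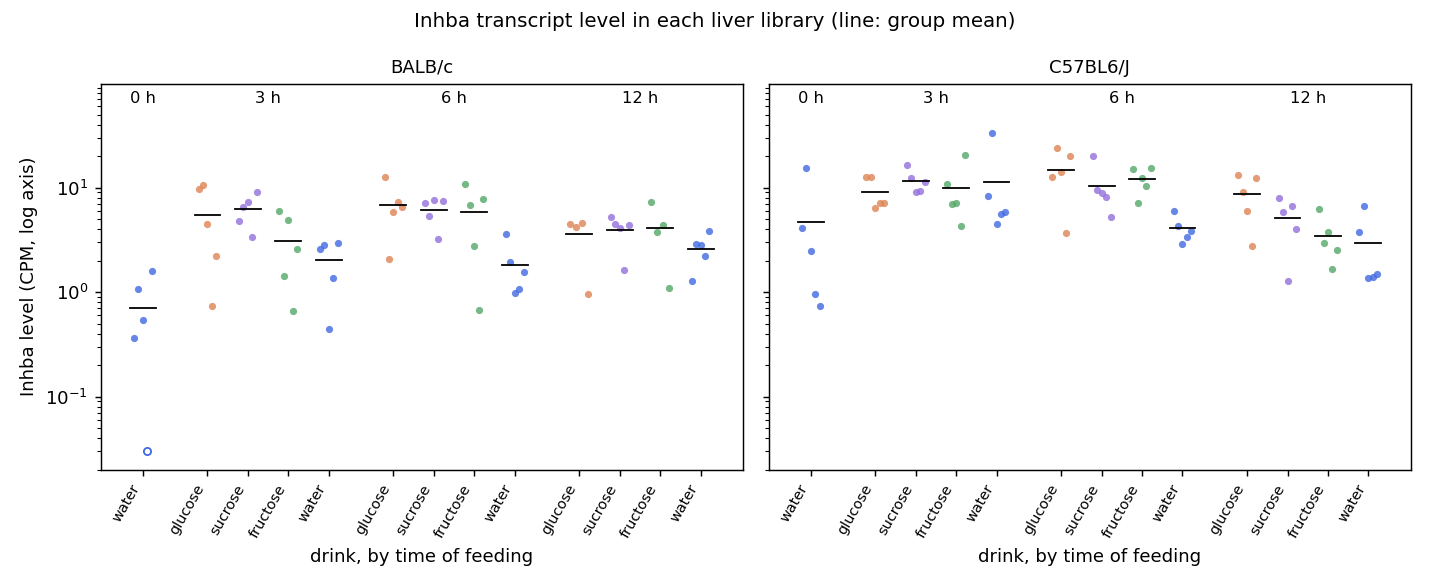
Inhba in CPM on a log axis, BALB/c in the left panel and C57BL6/J in the right, with glucose, sucrose, fructose and water by hours after feeding began. Each point is a library, each line a group mean, and the open symbol a library with 0 reads. At 6 h the water libraries reach at most 3.60 CPM in BALB/c and 5.91 CPM in C57BL6/J, and 11 of 15 and 13 of 15 sugar libraries lie above these levels.

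The other feeding responses on water were sorted by gene. The 3 times share the 0 h groups. Of the 9 genes, 8 were called at 3 h against 0 h, 5 at 6 h and 3 at 12 h, where 25.4%, 28.8% and 17.6% of all genes were. Angptl4 and Leap2 were called at all 3 times and kept their calls at 3 and 6 h under every alternative.

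Angptl4 fell, and most at 3 h. BALB/c libraries stood at 35.4, 41.9, 54.9, 48.8 and 47.1 CPM at 3 h, against 147, 244, 299.8, 421 and 361 CPM at 0 h. C57BL6/J libraries stood at 36.9, 27.6, 46.5, 17.0 and 40.2 CPM at 3 h, against 266, 26.1, 194, 252 and 226 CPM at 0 h. The times did not overlap in BALB/c, and in C57BL6/J they overlapped through 0 h replicate 2 alone, the library nearest to 3 h. The log2 fold change was -2.61 ± 0.31 at 3 h (SE, edgeR adjusted p = 1.94e-11, with 10 of 10 libraries lower), -1.68 ± 0.29 at 6 h (edgeR adjusted p = 2.37e-06) and -0.87 ± 0.29 at 12 h (edgeR adjusted p = 0.0232). The 12 h call was lost without replicate 3 (0.11) or 5 (0.146) and in the contrast's libraries alone (0.0938). With sugar drinks Angptl4 at 12 h was above 3 h by 1.67 ± 0.30 with glucose (edgeR adjusted p = 4.66e-06), 1.87 ± 0.30 with sucrose (2.47e-07) and 1.20 ± 0.30 with fructose (0.00104). Sugar groups were not tested against 0 h, nor was water at 12 h tested against 3 h.

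Angptl4 is also made by adipocytes. The 6 adipocyte markers summed to 24.0 to 38.6 CPM at 3 h and 20.8 to 94.5 CPM at 0 h in BALB/c with water, and to 32.2 to 90.1 CPM at 3 h and 29.6 to 159 CPM at 0 h in C57BL6/J. Adipoq was at 0 in 9 of all 128 libraries and Plin1 in 21, whereas Cfd and Plin4 were at 0 in 0. Plin4 had the highest median of the 6, at 17.7 CPM (3.53 to 126), where the sum of all 6 had a median of 30.3 CPM. The part of adipocyte transcripts in the Angptl4 fall was not tested. Its relative Angptl8, which is induced by feeding, rose by 3.30 ± 0.41 at 3 h (edgeR adjusted p = 1.52e-10). Of 12 glucocorticoid and glucagon targets 10 fell at 3 h and 0 rose, where 25.4% of all genes were called. Their median log2 fold change was -1.35, with Igfbp1 at -7.46 and Pck1, which controls the rate of glucose synthesis, at -3.34. A link of these targets to the Angptl4 fall was not tested. The group means of Pck1 were also the most like those of Angptl4 (r = 0.92 over 26 groups), ahead of Cnppd1 (0.91) and Slc7a2 (0.91).

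Leap2 rose with feeding. In BALB/c it was 210, 124, 182, 278 and 237 CPM at 3 h and 264, 258, 255, 299 and 230 CPM at 6 h, against 4.40, 90.7, 109.9, 96.4 and 74.3 CPM at 0 h. In C57BL6/J it was 156, 106, 185, 122 and 208 CPM at 3 h and 227, 259, 175, 215 and 200.0 CPM at 6 h, against 53.8, 184, 51.9, 57.6 and 33.3 CPM at 0 h. BALB/c groups did not overlap 0 h, and in C57BL6/J the overlap again came from 0 h replicate 2. The log2 fold change was 1.24 ± 0.24 at 3 h (SE, edgeR adjusted p = 1.62e-05), 1.65 ± 0.24 at 6 h (1.82e-08) and 0.89 ± 0.24 at 12 h (0.00318), higher in 10, 10 and 9 of 10 libraries. Without BALB/c water 0 h replicate 1 these were 1.09, 1.49 and 0.74, and all were called. The 12 h call was lost in the contrast's libraries alone (edgeR adjusted p = 0.172). No sugar moved Leap2 past the threshold, with log2 fold changes between -0.35 and 0.37. The proteasome subunit genes Psmb2 (r = 0.90), Psmd14 (0.89) and Psma1 (0.88) had group means most like those of Leap2.

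Gdf15 and Inhbe rose at 3 h. Gdf15 was 13.4, 6.54, 5.67, 11.7 and 4.83 CPM at 3 h and 4.20, 1.76, 5.52, 3.37 and 10.8 CPM at 0 h in BALB/c, and 13.1, 9.72, 14.0, 10.5 and 7.19 CPM at 3 h and 1.07, 6.58, 1.99, 3.67 and 4.43 CPM at 0 h in C57BL6/J. The times overlapped in BALB/c and did not in C57BL6/J. Its log2 fold change was 1.16 ± 0.31 at 3 h (SE, edgeR adjusted p = 0.00279, with 9 of 10 libraries higher) and 0.88 ± 0.31 at 6 h (edgeR adjusted p = 0.0247). At 6 h C57BL6/J replicate 1 stood at 29.8 CPM and the other C57BL6/J libraries at 5.25 to 9.76 CPM, and without replicate 1 the value was 0.34 and was not called (edgeR adjusted p = 0.533).

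Inhbe, the activin E subunit made mainly in liver, was 78.4, 72.1, 52.9, 48.5 and 63.6 CPM at 3 h and 0.121, 17.5, 26.8, 26.6 and 43.3 CPM at 0 h in BALB/c. In C57BL6/J it was 80.1, 72.0, 67.3, 26.4 and 65.1 CPM at 3 h and 47.9, 68.2, 27.9, 18.7 and 28.8 CPM at 0 h. The times did not overlap in BALB/c and overlapped in C57BL6/J. The log2 fold change was 1.08 ± 0.29 at 3 h (edgeR adjusted p = 0.00227), 0.05 at 6 h (0.921) and -0.86 ± 0.29 at 12 h (0.0271). The 3 h call was lost in the contrast's libraries alone (edgeR adjusted p = 0.101), and the 12 h call in 7 of 16 alternatives. The 12 h fall was -0.70 and not called without C57BL6/J water 0 h replicate 2 (edgeR adjusted p = 0.0841), and -0.71 without BALB/c water 12 h replicate 1 (0.0636). With fructose at 3 h Inhbe stood 0.72 below water on the log2 scale (edgeR adjusted p = 0.126). This difference was called in the contrast's libraries alone (-0.73, edgeR adjusted p = 0.0163) and without replicate 1 (-0.76, 0.0396). It was also called without BALB/c water 0 h replicate 1 (-0.72, 0.0453) and without the 3 libraries that stood apart (-0.72, 0.0407). None of these libraries is in the 2 drink groups compared. Gdf15 was not called with any sugar, and its value farthest from 0 was -0.93 with fructose at 6 h (edgeR adjusted p = 0.142). Under sugar drinks Inhbe was lower at 12 h than at 3 h with glucose (-0.93 ± 0.30, edgeR adjusted p = 0.012) and with sucrose (-0.78 ± 0.29, 0.032), as was Gdf15 with glucose (-0.94 ± 0.32, 0.0198). The glucose call of Inhbe was lost in 3 of 16 alternatives (edgeR adjusted p up to 0.277), its sucrose call in 5 (up to 0.205) and that of Gdf15 in 3 (up to 0.132). Of the 9 genes, 3 were called at 12 h against 3 h with glucose, 3 with sucrose and 2 with fructose, where 27.7%, 26.1% and 26.1% of all genes were.

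The activin genes moved in unlike ways on water. Inhba was higher at 3 h by 1.39 ± 0.44 (SE, edgeR adjusted p = 0.012), a call lost without replicate 1 (1.29, 0.0639) and in the contrast's libraries alone (1.39, 0.109). It was higher by 1.99 without C57BL6/J water 0 h replicate 2, which stood at 15.3 CPM and the rest of its group at 0.738 to 4.13 CPM. Without that library Inhba was also called at 6 h (1.17, edgeR adjusted p = 0.034) and 12 h (1.18, 0.0489), which it was not with it (0.57, 0.368, and 0.58, 0.431). Fst was lower at 3 h by 2.46 ± 0.52 (edgeR adjusted p = 0.000117) and at 6 h by 2.61 ± 0.52 (3.33e-05). Both values rest on 1 library. Without BALB/c water 0 h replicate 1, the Fst values were -0.42 at 3 h (edgeR adjusted p = 0.581) and -0.57 at 6 h (0.413). Of 14 activin receptor, binding and signal genes, Fst included, 1 rose and 4 fell at 3 h, where 25.4% of all genes were called, among them the co-receptor Tgfbr3 (-0.57), the receptor Acvr2b (-0.61) and the follistatin-like Fstl1 (0.62).

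**Figure D3:**
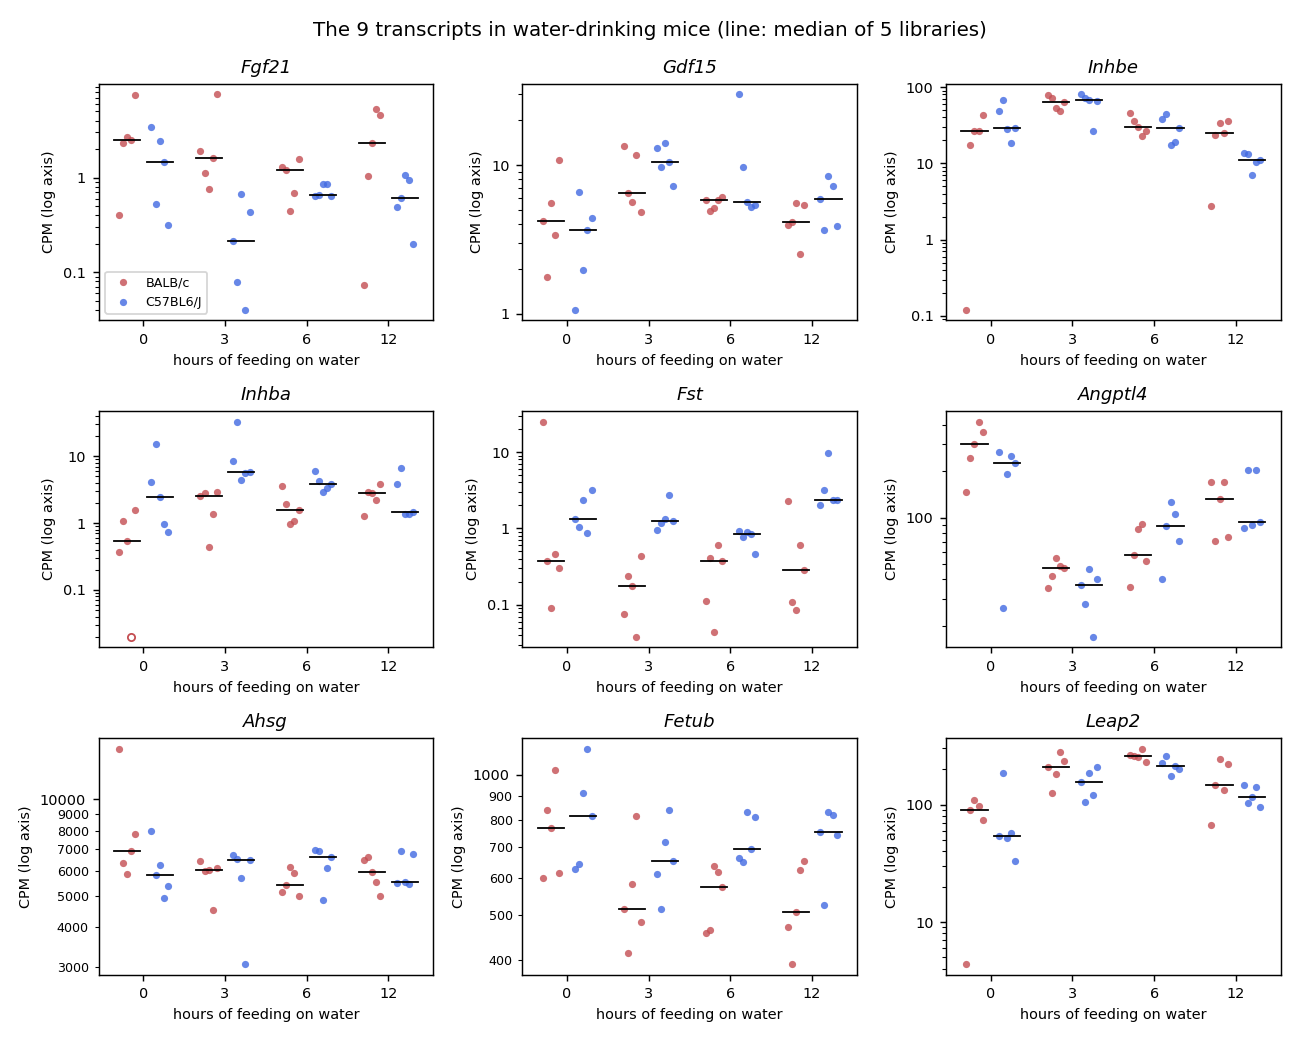
The 9 genes in CPM in water-drinking mice of both strains, 1 panel per gene, by hours after feeding began. Points are libraries, each line marks the median of 5, and open symbols mark libraries with 0 reads. Angptl4 is lowest at 3 h and Leap2 is highest at 6 h. The group means, which are not drawn, are 45.6 CPM in BALB/c and 33.7 CPM in C57BL6/J for Angptl4 at 3 h. For Leap2 at 6 h they are 261 CPM in BALB/c and 215 CPM in C57BL6/J.

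The fetuins changed least. Fetub was lower at 3 h by a log2 fold change of 0.38 ± 0.13 (SE, edgeR adjusted p = 0.0249), and at 6 and 12 h its values of -0.33 (0.051) and -0.36 (0.0521) fell just short of the threshold. The 3 h call was lost in 5 of 16 alternatives (adjusted p up to 0.09), whereas the 6 and 12 h values were called by DESeq2 (adjusted p = 0.0416 and 0.0447) and by edgeR with a replicate block (0.0207 and 0.0167). Ahsg was at -0.30 ± 0.14 at 3 h (edgeR adjusted p = 0.0946), and at -0.15 without BALB/c water 0 h replicate 1, where it stood at 14393 CPM. Of 5 genes of the fetuin and kininogen cluster, both fetuins included, 3 fell at 3 h and 0 rose, where 25.4% of all genes were called. The other 2 that fell were the kininogens Kng2 (-0.36, edgeR adjusted p = 0.000882) and Kng1 (-0.28, 0.017), and Kng1 also had the group means most like those of Fetub (r = 0.91). No sugar moved either fetuin, with log2 fold changes between -0.06 and 0.18.

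**Figure D4:**
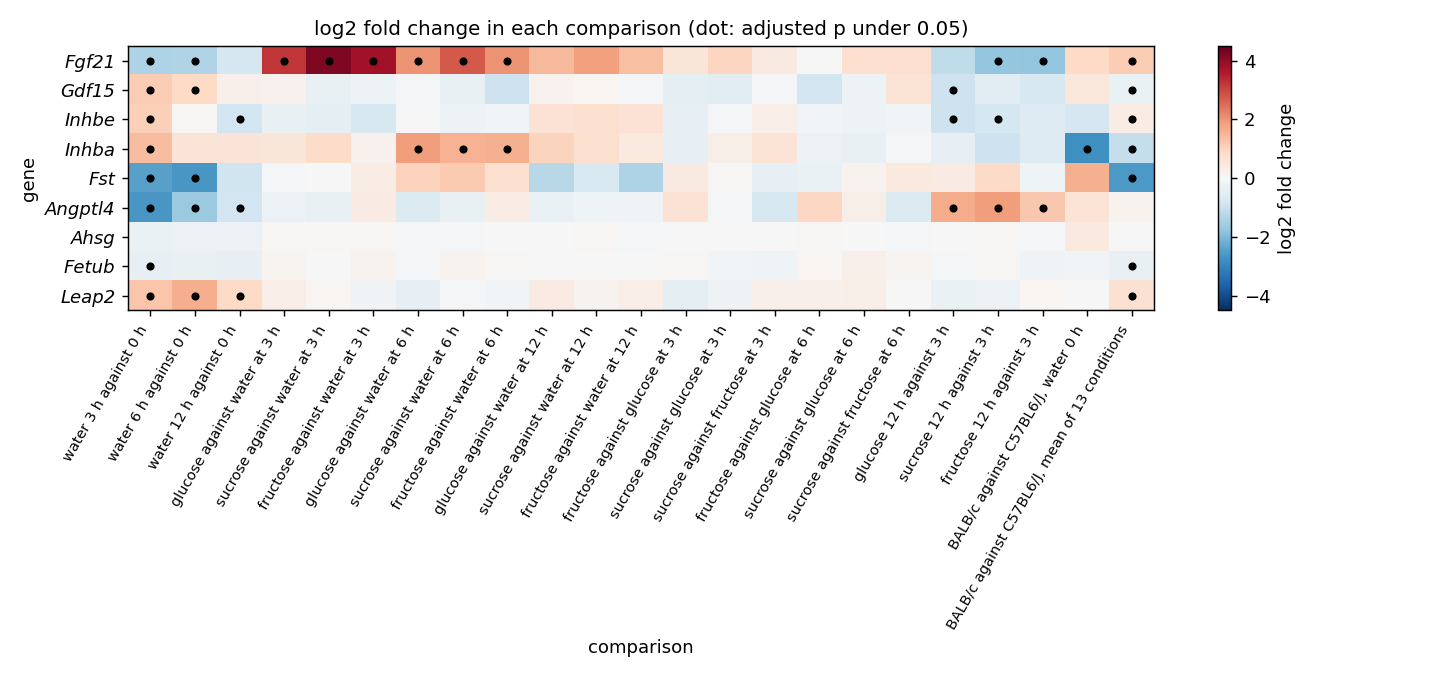
Heat map of log2 fold changes of the 9 genes, 1 row per gene and 1 column per comparison, averaged over both strains where both entered. A dot marks an edgeR adjusted p under 0.05. The sugar comparisons at 3 h hold dots for Fgf21 alone, at 3.22, 4.19 and 3.77, and those at 6 h for Fgf21 and Inhba.

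Most of these genes stood at different levels in the strains. Over the mean of 13 conditions of drink and time, 7 of 9 were called between BALB/c and C57BL6/J, where 55.3% of all genes were. Fst differed most. With water at 3 h it stood at 0.0754, 0.242, 0.179, 0.0383 and 0.436 CPM in BALB/c and 0.945, 1.19, 1.33, 2.74 and 1.26 CPM in C57BL6/J. BALB/c libraries lay wholly below those of C57BL6/J in 9 of 13 conditions, and the mean was lower in 12. The log2 fold change came to -2.57 ± 0.22 (SE, edgeR adjusted p = 5.96e-20).

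Fgf21 was higher in BALB/c by a log2 difference of 1.13 ± 0.19 (SE, edgeR adjusted p = 2.88e-07). Its BALB/c mean was higher in 13 of 13 conditions, and the libraries of the strains were fully apart in 1. Leap2 was higher in BALB/c by 0.69 ± 0.09 (edgeR adjusted p = 2.01e-10), with the mean higher in 12 conditions and the libraries apart in 5. Inhbe was higher by 0.35 ± 0.11 (0.00584), with the mean higher in 12, a call lost without replicate 3 (0.0979) or 4 (0.0507). Inhba was lower by 1.09 ± 0.17 (1.1e-08), with the mean lower in 12, and Fetub by 0.32 ± 0.05 (1.65e-07), with the mean lower in 13. Gdf15 was lower by 0.31 ± 0.12 (0.0274), a call lost without replicate 1, 2, 3 or 4. Angptl4 at 0.14 (0.296) and Ahsg at 0.02 (0.789) were not called. Leukocyte markers summed to a median of 34.3 CPM in BALB/c (18.2 to 124) and 52.7 CPM in C57BL6/J (24.1 to 392), and their part in the strain differences was not tested.

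**Figure D5:**
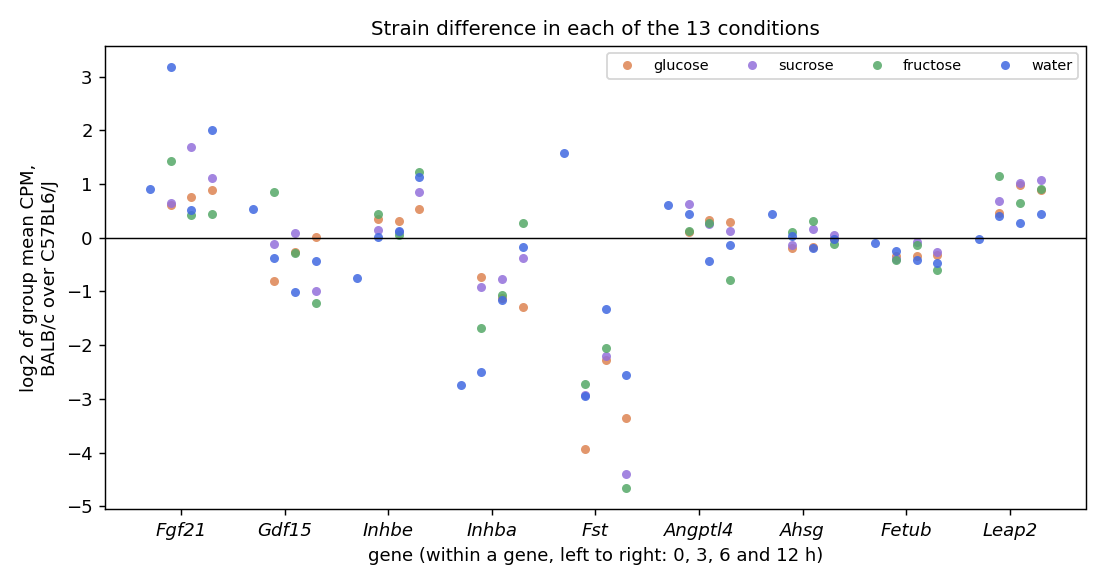
Log2 of the group mean CPM in BALB/c over that in C57BL6/J for each of the 9 genes, 1 point per condition of drink and time (13 conditions). Fgf21 is above 0 in all 13 conditions and Fetub below 0 in all 13. Fst is below 0 in all but 0 h with water, where 1 BALB/c library stood at 25.1 CPM.

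At 0 h alone, 1 of 9 genes was called between the strains, where 16.3% of all genes were. Inhba was lower in BALB/c, at 0.364, 1.06, 0.543, 0 and 1.58 CPM against 4.13, 15.3, 2.46, 0.966 and 0.738 CPM in C57BL6/J. The strains overlapped, the log2 fold change came to -2.75 ± 0.67 (SE, edgeR adjusted p = 0.00112), and without C57BL6/J replicate 2 it was -1.54 and not called (0.117). Fst was at 1.59 (edgeR adjusted p = 0.0996), and without BALB/c replicate 1 it turned to -2.49 and was called (0.00675). Leap2 was at -0.02 (0.979), and at 0.90 (0.0256) without the 3 libraries that stood apart.

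Whether the strains answered differently was tested with 4 interactions. For feeding time on water 1 of 9 genes was called, where 0.634% of all genes were. This was Fst (edgeR adjusted p = 0.0239), with differences between BALB/c and C57BL6/J in the log2 fold change of -4.47, -2.91 and -4.13 at 3, 6 and 12 h, and without BALB/c water 0 h replicate 1 the adjusted p was 0.899. For sugar against water, edgeR called 0 of 9 genes at 3 h (0.0474% of all genes), 0 at 6 h (0.178%) and 0 at 12 h (0%), and 0 of the 9 had an unadjusted p under 0.05 at any of these times. At 12 h 333 of all genes had an unadjusted p under 0.05, and DESeq2 was not run for interactions. For Fgf21 at 3 h the sugar response was smaller in BALB/c by 2.61, 2.58 and 1.79 on the log2 scale with glucose, sucrose and fructose, with an unadjusted edgeR p of 0.0608 and an adjusted p of 1.

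Of the receptors for these hormones, Fgfr1 (-1.43), Fgfr3 (-1.21) and Fgfr4 (-0.62) were lower in BALB/c over the 13 conditions, 3 of 6 FGF21 and GDF15 receptor genes tested, and 0 were higher, a share near the 55.3% of all genes called between the strains. Klb, which encodes beta-Klotho, was lower at 6 h of feeding on water than at 0 h (-0.71, edgeR adjusted p = 0.0412). The activin C subunit gene Inhbc was higher in BALB/c by 0.84 (1.69e-19) and Inhbb was lower by 0.37 (0.0219).

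Deviations from the group means were correlated between some of these genes. After each library was set against its group mean in log2 CPM, 10 of 36 pairs among the 9 genes were correlated over the 128 libraries at an adjusted permutation p of 0.05, 5 positively and 5 negatively, and 13 by rank. Inhba and Fetub were inversely related, with Pearson's r = -0.632 and Spearman's rho = -0.612 (permutation p = 1e-05, the smallest that 100000 permutations can give, adjusted p = 0.00036), and r = -0.602 without the 2 most extreme libraries. It was -0.625 within BALB/c (63 libraries), -0.643 within C57BL6/J (65), and -0.622 in the 94 libraries without a name suffix. Gdf15 and Fetub had r = 0.338 and rho = 0.358 (permutation p = 0.00038, adjusted p = 0.00342). Both pairs were called under all 11 alternatives. The deviations of Inhba and Fetub followed the replicate number: Inhba lay above its group mean in 23 of 26 libraries of replicate 1 and 2 of 24 of replicate 4, and Fetub in 3 of 26 and 20 of 24. With the replicate number removed as a block, r was -0.483 (adjusted permutation p = 0.00036), and within the 5 numbers it lay between -0.266 (replicate 1) and -0.591 (replicate 4). For Gdf15 and Fetub r was 0.336 with the block (0.00636). What the numbers share was not tested.

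Other pairs held to different degrees. Inhbe and Leap2 had r = 0.666 and rho = 0.355 (adjusted permutation p = 0.00204), and r = 0.361 without BALB/c water 0 h replicate 1 (0.00658). Inhbe and Fst had r = -0.607 (adjusted permutation p = 0.00054), and r = -0.426 without that library (0.00054). Ahsg and Fetub had r = -0.324 and rho = -0.407 (adjusted permutation p = 0.00494), called in 9 of 11 alternatives. Within C57BL6/J their r was -0.541 (adjusted permutation p = 0.00012), and within BALB/c it was -0.131 and not called (0.527). Inhba and Angptl4 had r = -0.318 (adjusted permutation p = 0.00675), and r = -0.197 with the replicate block, which was not called (0.182). Fgf21 and Inhbe had r = 0.389 (adjusted permutation p = 0.00494), at 0.501 in BALB/c and 0.143 in C57BL6/J. The libraries of a pair share depth and tissue makeup, and the part of these was not tested.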

How the data were processed

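Liver RNA of 128 mice was sequenced as 150 bp paired reads on a NovaSeq after NEBNext library preparation, per the labels' protocols. The authors deposited raw read counts per gene and FPKM values for the same libraries. The FPKM values are the counts divided by gene length and by the library's total, as recomputed from the deposited table, and were used only to compare levels between genes. CASAVA, STAR 2.5, HTSeq 0.6.1 and DESeq2 and the build mm10 are named, without role or order, per the submitters' processing notes. Every 2 libraries of a group differed by more than sampling noise.

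The test of the counts was that of edgeR 4.0.16 (R 4.3.3). After filterByExpr over the 26 groups, 16886 genes entered 1 model with a mean for each group and TMM-scaled library sizes. Contrasts averaged over both strains used the quasi-likelihood test with robust dispersions, adjusted by Benjamini-Hochberg within each contrast over all genes, at a threshold of 0.05. Values are log2 fold changes with SE, and CPM with TMM-scaled library sizes. Correlations within groups used log2 CPM with a prior count of 1 and 100000 permutations. The fits were tested on simulated data. Python 3.11.15 with pandas 2.3.3, scipy 1.17.1 and matplotlib 3.10.9, limma 3.58.1 and DESeq2 1.42.0 were also used.

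The 9 genes and all lists were chosen with earlier results of these data known. Named genes are the 9, up to 3 genes with the smallest p per list and comparison, and the 3 genes with the most similar group means. The alternatives were DESeq2, RLE scaling, all genes with reads kept, a replicate block, a letter a that ends 34 library names as a covariate, the 94 libraries without it, a model of the contrast's libraries alone, each replicate number left out in turn, and, for correlations, a prior count of 0.25. Alternatives without single libraries that stand apart, and the replicate block for correlations, were chosen after seeing the data. Columns of per-sample values left unused numbered 0.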

Additional observations from a re-analysis of the deposited data

Results flagged for a closer look

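In groups of 4 or 5 libraries, 1 library stood far from the others, by the gap to its neighbour relative to the range, in 27 of 234 cases of a gene in a group. Chance alone gives about 1 in 20 groups. The library was the lowest of its group in 20 cases and the highest in 7.

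BALB/c water 0 h replicate 1 stood apart for 3 genes. It held Fst at 25.1 CPM (others at most 0.462), Inhbe at 0.121 CPM (others 17.5 to 43.3) and Leap2 at 4.40 CPM (others 74.3 to 109.9). Fst also differed between strains in its response to feeding time on water (edgeR adjusted p = 0.0239), a difference that was not called without this library (0.899). C57BL6/J water 0 h replicate 2 held Angptl4 at 26.1 CPM (others 194 to 266), at the level of its strain at 3 h.

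For the liver hormones proper, Fgf21 was high in C57BL6/J glucose 12 h replicate 1 at 7.40 CPM (others 1.19 to 1.73). In C57BL6/J glucose 3 h replicate 1, Gdf15 at 34.1 CPM (others 8.79 to 10.1) and Angptl4 at 77.6 CPM (others 15.2 to 24.0) were both high. Angptl4 was also high in BALB/c glucose 12 h replicate 2 at 173.7 CPM and low in C57BL6/J sucrose 12 h replicate 5 at 30.1 CPM. Leap2 was low in C57BL6/J with fructose, at 72.1 CPM in replicate 1 at 3 h and 45.5 CPM in replicate 2 at 12 h.

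Of the activin genes, Inhbe was low in C57BL6/J water 3 h replicate 4 at 26.4 CPM, BALB/c glucose 3 h replicate 4 at 28.3 CPM, C57BL6/J fructose 6 h replicate 4 at 15.1 CPM, BALB/c water 12 h replicate 1 at 2.77 CPM and BALB/c fructose 12 h replicate 5 at 23.9 CPM. Inhba was low in BALB/c glucose 12 h replicate 5 at 0.968 CPM and BALB/c sucrose 12 h replicate 4 at 1.64 CPM. Among C57BL6/J libraries Fst was high with sucrose at 3 h in replicate 4 at 2.99 CPM. It was low at 6 h in water replicate 5 at 0.469 CPM, glucose replicate 5 at 0 CPM and fructose replicate 1 at 1.01 CPM.

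Of the fetuins, Ahsg was low in replicate 4 with water at 3 h in both strains, at 4521 CPM in BALB/c and 3075 CPM in C57BL6/J, and in BALB/c glucose 12 h replicate 1 at 4451 CPM. Fetub was low in C57BL6/J water 12 h replicate 2 at 523 CPM and high in C57BL6/J sucrose 12 h replicate 3 at 938 CPM.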

How the results depend on the processing

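Of 42 calls of a gene in a comparison, 16 held under every alternative, 26 were lost under at least 1 and 0 reversed. Those that held include Fgf21 with sucrose at 3 and 6 h and with fructose at 3 h, Angptl4 and Leap2 at 3 and 6 h on water, and the mean strain differences of Fgf21, Inhba, Fst, Fetub and Leap2. Leaving out 1 replicate number or 1 library left 10 to 19 feeding calls (16 with all libraries), 4 to 10 sugar against water (9), 0 to 1 between sugars (0), 5 to 8 of 12 h against 3 h (8), 6 to 9 between strains (8), 0 to 1 interactions (1) and 7 to 12 correlated pairs (10). The libraries without the name suffix gave 4 sugar, 3 of 12 h against 3 h and 0 interaction calls, and the contrast's libraries alone 8 feeding and 0 interaction calls. Without the 3 libraries that stood apart there were 0 interaction calls. The causes were not tested, beyond the smaller number of libraries. With the replicate block the counts were 18, 9, 0, 9, 8, 1 and 11, in the order above, and 9 of the 10 correlated pairs were called with it too. Replicate numbers follow the order of the samples. They were not taken as pairs, and the main model held no term for them. The data nonetheless showed structure shared by number. Deviations from group means correlated at a mean r of 0.076 for libraries with the same number and -0.019 for others. Of 128 libraries, 85 correlated best with their own number among the 5. Of the pairs with the same number, 45.3% had r over 0.1. Over all genes, 136 of 428 counts moved by over 1.5 times. They ranged from 1 to 59 for glucose against water at 3 h (32 called), 107 to 643 for sucrose (493) and 399 to 1355 for fructose (1133), and at 6 h from 18 to 279 (153), 35 to 494 (193) and 16 to 514 (207). On water at 12 h the range was 1471 to 3315 (2974), between strains at 0 h 817 to 3105 (2753), and for strain by feeding time 3 to 190 (107). DESeq2 was not run for the interactions. Depth limits Fst and Fgf21, with as few as 0 and 1 reads in a library.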

Other observations

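Of 16 other hormones and growth factors that liver secretes, 1 rose and 4 fell at 3 h on water against 0 h, a share near the 25.4% of all genes called. Manf, a stress-induced neurotrophic factor, rose by 2.06 ± 0.23 on the log2 scale (edgeR adjusted p = 3.07e-12). Nrg4, a neuregulin best known from brown fat, stood at -1.77 ± 0.27 (edgeR adjusted p = 8.38e-08), and Enho, which encodes adropin, at -0.64 (0.000415). Enho was higher with fructose than with water at 3 h (0.61 ± 0.15, edgeR adjusted p = 0.00412), and the hepatokine Fgl1 with sucrose at 6 h (1.45 ± 0.39, 0.0386). These were the only genes of the 16 that edgeR called against water with any sugar at 3 or 6 h. Between strains, 5 of the 16 were higher in BALB/c and 4 lower over the mean of 13 conditions, near the 55.3% of all genes called, among them Enho (1.69 ± 0.06, edgeR adjusted p = 1.43e-49), Lect2 (0.54) and the angiotensin precursor Agt (-0.26).

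Lipoprotein lipase, the target of Angptl4, was higher in BALB/c (Lpl, 0.99 ± 0.11, edgeR adjusted p = 1.08e-14), and the endothelial lipase gene Lipg lower (-0.97 ± 0.12, 2.53e-11).

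For the remaining genes, those with group means most like Fst over the 26 groups were Trpm2, Mndal and Ifi204 (r = 0.95 each), most like Inhba were Atp2b2 (0.90), Enpep (0.88) and Atp8b1 (0.87), and most like Inhbe were Cstf2 (0.87), Jmjd8 (0.87) and Nvl (0.85). For Gdf15 they were Adamts1 (0.78), Marcksl1 (0.76) and Sox18 (0.75), and for Ahsg Ctsz (0.80), C1qa (0.77) and Psmd9 (0.76).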
